A study of Papio with 24 samples.

Results

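A set of 10 genes that control or carry out fat storage was followed in cultured adipose-derived stem cells of fetal baboons. They are the regulators PPARG, CEBPA, CEBPB, CEBPD and KLF15, and the lipid handling genes CD36, FABP4, LPL, SCD and PLIN2. Every probe that the platform annotation gives to these 10 symbols was taken, which gave 16 of the 48803 probes on the array, for 10 of the 18852 genes it names. Of these, 10 probes of 9 genes were detected often enough to be tested, and LPL was not.

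The cells came from 3 fat depots of each of 8 fetuses at 165 days of gestation (term at 184 days). The first depot was omental, from within the abdominal cavity, and the others lay under the skin of the abdomen (abdominal below) and of the thigh (femoral below). The mothers of 4 fetuses ate freely (fetuses control_9017, control_9087, control_8011 and control_8009), and those of the other 4 received a diet restricted by 30% throughout pregnancy (fetuses restricted_9073, restricted_9075, restricted_9085 and restricted_2820). The males were control_9017 and restricted_9085, so that each diet had 1 male and 3 females, and each of the 6 groups of depot and diet held 4 arrays. After release by collagenase, all cells were cultured with 10% fetal bovine serum, stored frozen and cultured again until confluent, and the labels give no differentiation treatment. RNA of 3 wells was pooled for each array, so an array reads 1 fetus and 1 depot, and the fetus is the replicate.

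PPARG is the nuclear receptor at the centre of fat cell formation. CEBPB and CEBPD act early in that programme and help to switch on PPARG and CEBPA, which then maintain each other and raise the genes of fatty acid uptake and storage. CD36 takes up fatty acids, FABP4 binds them in the cytoplasm, LPL releases them from circulating lipoproteins, SCD desaturates them, and PLIN2 coats the lipid droplets in which they are stored.

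Levels are log2 normalised intensities. Human probes were read on baboon RNA, so a level was compared only with the same probe on other arrays. For the same reason, a probe detected on no array does not show that the RNA was absent. PPARG, CD36 and PLIN2 each had both detected probes and probes detected on no array. The arrays detected 13102 to 14994 probes each, with mean deposited signals of 148 to 211, and the number of arrays limits every comparison. A test passed at an adjusted p under 0.05 with limma, Benjamini-Hochberg adjusted over the 16933 tested probes. Progenitor markers were present on every array, with 11 to 12 of 13 detected and THY1 on none. Of 12 markers of mature fat cells, PLIN1, SLC2A4, PCK1, CFD, TRARG1, GPD1 and AQP7 were detected on no array and ADIPOQ, which encodes adiponectin, on 2. The other 4 were detected more often: the leptin gene LEP on 24 arrays, the retinol carrier RBP4 on 23, the lipase LIPE on 11 and the droplet protein CIDEC on 9.

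PPARG was highest in omental cells. By its brightest probe, control omental arrays read 10.20 (fetus control_9017), 10.66 (control_9087), 10.00 (control_8011) and 10.13 (control_8009), and restricted omental arrays read 10.12 (restricted_9085), 9.80 (restricted_2820), 8.94 (restricted_9075) and 10.22 (restricted_9073). Abdominal arrays of the same fetuses, in the same order, read 9.50, 8.60, 8.01 and 8.24 with the control diet and 9.65, 8.60, 8.37 and 9.60 with the restricted diet. Every omental array lay above the abdominal array of its own fetus, although the ranges of the 2 depots overlapped through the low omental array of fetus restricted_9075.

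Femoral arrays read 8.67, 8.23, 8.88 and 8.26 for PPARG with the control diet and 7.87, 8.20, 6.50 and 7.89 with the restricted diet. All 8 omental arrays lay above all 8 femoral arrays. How many of all tested probes separate these depots in the same way was not counted. Over 8 arrays each, PPARG averaged 10.01 ± 0.50 (SD) in omental, 8.82 ± 0.66 in abdominal and 8.07 ± 0.72 in femoral cells.

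**Figure D1:**
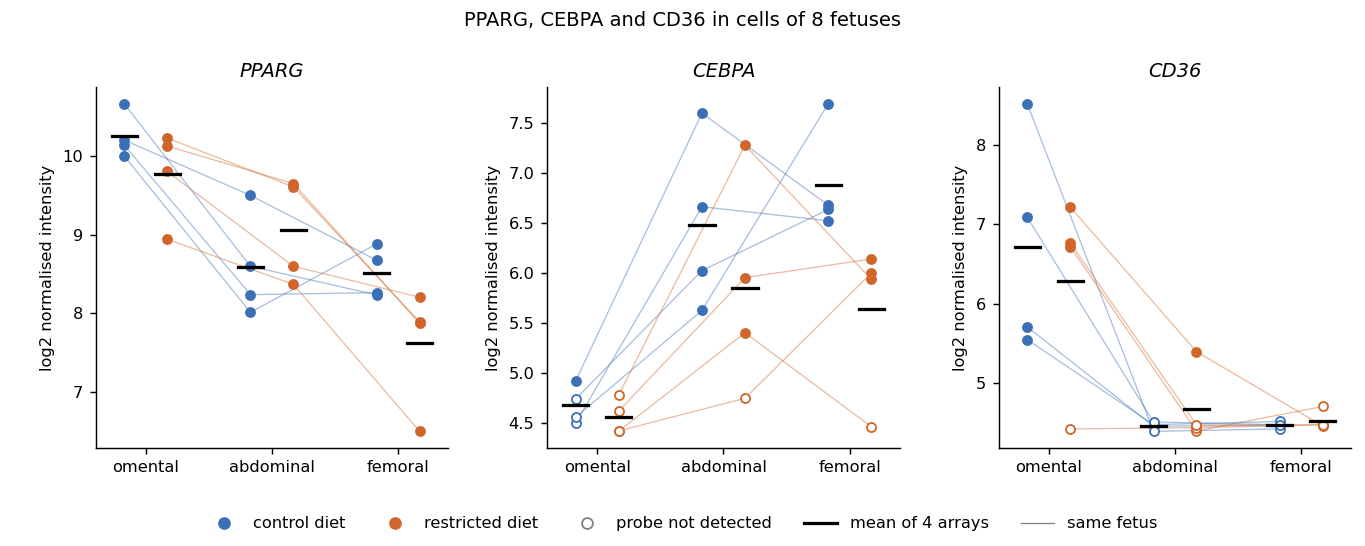
Log2 normalised intensity of PPARG (brightest probe), CEBPA and CD36 on 24 arrays, by depot and maternal diet; points are arrays, open points are arrays on which the probe was not detected, thin lines join the depots of 1 fetus and black bars are means of 4 arrays. PPARG is highest in omental cells, CEBPA lies at 4.42 to 4.93 there, and CD36 is at 5.54 to 8.53 on 7 omental arrays and at most 4.70 on the femoral arrays.

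The omental mean of PPARG exceeded the abdominal mean by 1.19 ± 0.27 (standard error, n = 8 and 8, 2.28-fold, limma adjusted p = 0.0203) and the femoral mean by 1.94 ± 0.23 (3.85-fold, adjusted p = 3.31e-05). A second PPARG probe, dimmer but detected on all 24 arrays, gave differences of 1.19 ± 0.24 (adjusted p = 0.0085) and 1.77 ± 0.17 (adjusted p = 2.93e-06). These fits do not pair the depots of a fetus. With the fetus as a replicate block, the first probe gave standard errors of 0.20 and 0.14 (limma adjusted p = 0.00484 and 3.02e-06). In the fit without the block, its call against abdominal cells was lost without fetus control_9087 (adjusted p = 0.0772), control_8011 (0.0604) or control_8009 (0.0809) and with no filter on dim probes (0.0692). The second probe passed under all 20 alternatives tried. The other 2 PPARG probes were detected on no array. Abdominal cells exceeded femoral cells by 0.75 ± 0.32 by the first probe and 0.58 ± 0.24 by the second, and neither passed (unadjusted p = 0.0316 and 0.0262), so the order of these 2 depots was not resolved. In bulk RNA of this kind, fewer cells of a type and less RNA per cell cannot be told apart.

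Within fetuses the PPARG differences were uniform in sign. The omental level exceeded the abdominal level of the same fetus by 0.48 to 2.06, with a mean of 1.19 ± 0.69 (SD, 8 fetuses), and it was higher in 8 of 8. It exceeded the femoral level by 1.12 to 2.44, with a mean of 1.94 ± 0.49, again in 8 of 8. An exact sign-flip permutation test, two-sided, gave p = 0.0078 for each, which is the smallest p that 8 fetuses allow, and 6 such tests were made. Abdominal cells were above femoral cells in 6 of 8 fetuses (mean 0.75 ± 0.98, exact p = 0.0938), with fetuses control_8009 (-0.026) and control_8011 (-0.87) on the other side. Without fetus control_8011 the mean was 0.99 (exact p = 0.0312).

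CEBPA, the factor that maintains the fat cell programme together with PPARG, ran the other way. Omental arrays read 4.93, 4.75, 4.56 and 4.51 in fetuses control_9017, control_9087, control_8011 and control_8009, and 4.78, 4.62, 4.42 and 4.43 in fetuses restricted_9085, restricted_2820, restricted_9075 and restricted_9073. Only the array of fetus control_9017 passed detection among these 8. Abdominal arrays of the same fetuses read 7.60, 6.03, 5.63 and 6.66, then 7.28, 5.96, 5.41 and 4.75.

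The highest abdominal CEBPA levels were thus those of the 2 males, control_9017 and restricted_9085, while the abdominal array of fetus restricted_9073 was not above background. Femoral arrays read 6.68, 6.64, 7.69 and 6.52 in control and 5.94, 6.14, 4.47 and 6.00 in restricted fetuses. There the array of fetus restricted_9075 was not above background. The single CEBPA probe was detected on 7 of 8 arrays in each subcutaneous depot.

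Omental CEBPA lay below abdominal CEBPA by 1.54 on the log2 scale (difference -1.54 ± 0.31, limma adjusted p = 0.00939). Against femoral cells the difference was -1.64 ± 0.26 (adjusted p = 0.000393). With the fetus as a replicate block the standard errors were 0.24 and 0.24 (limma adjusted p = 0.00304 and 0.000503). No fold is given for either difference, since 7 of the 8 omental arrays were not above background and 14 of the probe's 15 detections were subcutaneous. The probe was thus tested through the depots where it was high, which partly fixed these differences. Abdominal and femoral cells averaged 6.16 ± 0.96 and 6.26 ± 0.91 (SD, n = 8 each), a difference of -0.10 ± 0.37 that did not pass. Within fetuses, the omental level was below both subcutaneous levels in 8 of 8 (means -1.54 ± 0.82 and -1.64 ± 0.86, exact sign-flip p = 0.0078 each). Between the subcutaneous depots 4 of 8 fetuses were higher in abdominal cells (exact p = 0.836).

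Because omental CEBPA sat at the background, the size of its difference depends on the constant added before taking logs. With 50 added in place of 16 the differences were -0.91 and -0.97, still passing (adjusted p = 0.0303 and 0.00153). PPARG and CEBPA thus differed in opposite directions between omental and both subcutaneous depots in every fetus. The smallest CEBPA differences were those of fetus restricted_9073 between omental and abdominal cells (-0.33) and fetus restricted_9075 between omental and femoral cells (-0.05), in each of which both arrays were at background.

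**Figure D2:**
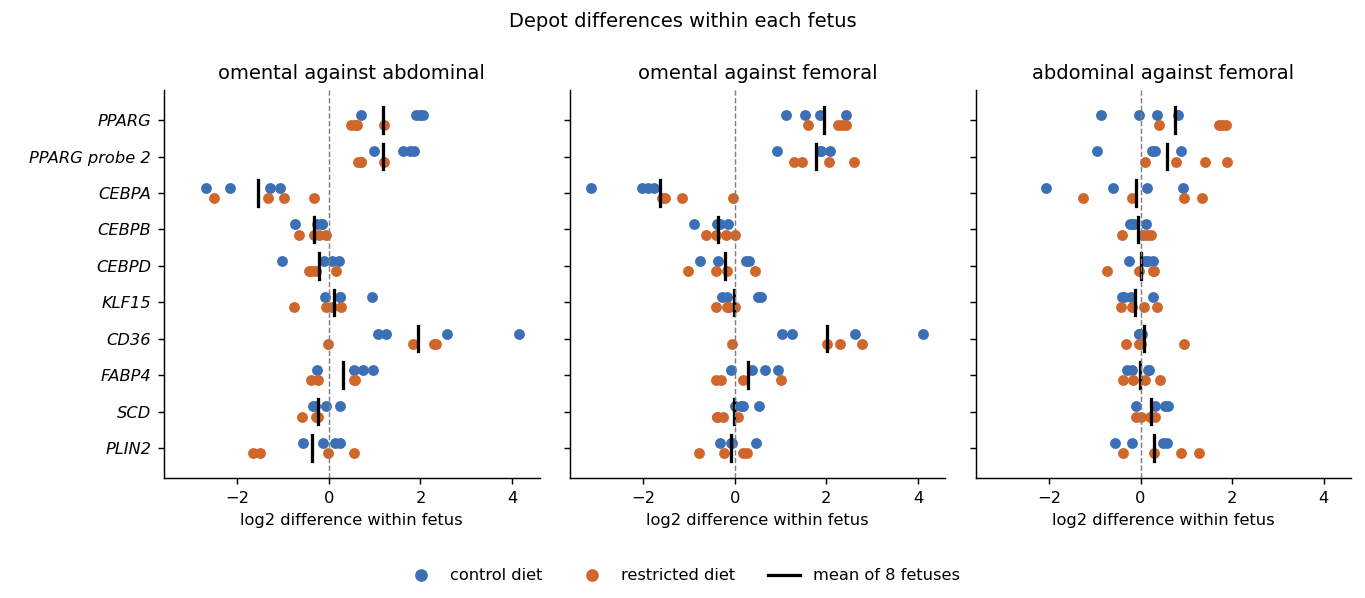
Differences in log2 intensity between depots of the same fetus for the 10 tested probes; each point is 1 of 8 fetuses, coloured by maternal diet, and black bars are means. Omental minus abdominal and omental minus femoral differences are above 0 in all 8 fetuses for both PPARG probes and below 0 in all 8 for CEBPA.

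The early factors CEBPB and CEBPD were detected on all 24 arrays, with CEBPB between 11.29 and 12.30 and CEBPD between 8.24 and 9.88. CEBPB averaged 11.59 ± 0.20 (SD) in omental, 11.91 ± 0.26 in abdominal and 11.96 ± 0.19 in femoral cells, with 8 arrays each. It was lower in omental than in femoral cells (-0.37 ± 0.10, limma adjusted p = 0.0185), in 7 of 8 fetuses. In the fit without the block this call was lost without fetus control_9017 (adjusted p = 0.064), control_8011 (0.0518) or restricted_9073 (0.059), and in the females alone (0.158). With the fetus as a replicate block the difference was -0.37 ± 0.09 (limma adjusted p = 0.0145).

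Omental CEBPB was below abdominal CEBPB in 8 of 8 fetuses, but by only -0.32 ± 0.11, which did not pass (adjusted p = 0.14). It passed with the fetus as a replicate block (adjusted p = 0.0348), in a single fit of the 24 arrays with fetus as random effect (0.0333) and without the abdominal array of fetus restricted_9073 (0.0452). CEBPD averaged 9.05 ± 0.38 in omental, 9.27 ± 0.47 in abdominal and 9.26 ± 0.36 in femoral cells. Its differences from omental cells, -0.22 ± 0.20 and -0.21 ± 0.18, did not pass. In fetus restricted_9073, CEBPD was the lowest of the 8 fetuses in omental (8.24) and abdominal (8.52) cells.

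KLF15, a glucocorticoid-induced factor that acts upstream of PPARG, was close to background, with levels of 4.58 to 5.63 and detection on 21 of 24 arrays. Its depot means of 5.10 ± 0.22, 4.99 ± 0.33 and 5.10 ± 0.23 differed by at most 0.11 and no difference passed. The highest KLF15 level was in abdominal cells of the male restricted_9085.

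CD36 was the lipid gene with a depot difference. Its 1 informative probe read 8.53, 7.09, 5.54 and 5.70 in omental cells of fetuses control_9017, control_9087, control_8011 and control_8009, and 6.77, 6.72, 4.41 and 7.22 in those of fetuses restricted_9085, restricted_2820, restricted_9075 and restricted_9073. It was detected on 7 omental arrays, all but that of fetus restricted_9075. Of the abdominal arrays only that of fetus restricted_9073 detected it, at 5.39, and the other 7 lay at 4.38 to 4.50. No femoral array detected it, with values of 4.41 to 4.70.

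CD36 averaged 6.50 ± 1.25 in omental and 4.56 ± 0.34 in abdominal cells (SD, n = 8 each), a difference of 1.94 ± 0.43 (limma adjusted p = 0.0162). The probe was tested mainly through omental arrays, which gave 7 of its 8 detections. A depot difference was thus partly fixed by its being tested. In the fit without the block, the call was lost without fetus restricted_9085 (adjusted p = 0.0579) or control_9087 (0.0612), in the females alone (1.51 ± 0.43, 0.129) and with no filter on dim probes (0.0588). It held without the abdominal array of fetus restricted_9073 (2.07 ± 0.44, 0.00887). With the fetus as a replicate block the difference was 1.94 ± 0.35 (limma adjusted p = 0.00685). Against femoral cells, whose arrays give only a bound, CD36 was at least 3.33-fold higher in omental cells, from the mean over all 8 omental arrays against the lowest detected signals of the femoral arrays (fitted difference 2.01 ± 0.41, adjusted p = 0.00347). With 50 added before logs the fitted differences were 1.20 and 1.23. The other 2 CD36 probes were detected on no array.

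Within omental cells, the fetus with the lowest PPARG level, restricted_9075, also had the lowest CD36 level. Across the 8 omental arrays, PPARG and CD36 had a Pearson r of 0.701 (exact permutation p = 0.0609) and a Spearman rho of 0.786 (exact p = 0.0279), and without fetuses restricted_9075 and control_9087, the farthest from the median PPARG level, r was 0.386. PPARG and FABP4 gave r = 0.727 and rho = 0.762 (exact p = 0.032 and 0.0368), with 0.533 on the 6 remaining arrays. CD36 and FABP4 gave r = 0.80 and rho = 0.833 (exact p = 0.0177 and 0.0154). Without fetuses restricted_9075 and control_9017, the farthest from the median CD36 level, their r was 0.627. These 3 relations were chosen after the values were seen. Their Benjamini-Hochberg adjusted p-values were 0.0609, 0.048 and 0.048 for r and 0.0368 for each rho. The adjustment covers these 3 relations alone and not the choice of them among the members. Each r was lower without its 2 farthest arrays.

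FABP4 itself was near background everywhere. In omental cells it read 5.52, 5.44, 5.24 and 4.74 in control fetuses and 5.16, 4.95, 4.59 and 5.66 in restricted fetuses, and it was detected on 6 of 8 arrays. It was detected on 4 abdominal and 5 femoral arrays, with values of 4.48 to 5.19 and 4.58 to 5.35. Omental cells were higher by 0.31 ± 0.15 and 0.30 ± 0.15, and neither difference passed (limma adjusted p = 0.319 and 0.266).

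The single LPL probe was detected on no array, with values of 4.33 to 4.63. SCD was dim but detected on all arrays, at 5.76 ± 0.30, 5.99 ± 0.19 and 5.77 ± 0.21 (SD, n = 8) in omental, abdominal and femoral cells, and no depot difference passed. Omental SCD was below abdominal SCD in 7 of 8 fetuses (-0.23 ± 0.11, adjusted p = 0.325).

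PLIN2 was detected on all 24 arrays by 1 of its 2 probes, and on none by the other. Most arrays lay between 7.68 and 8.91. The exceptions were the abdominal arrays of fetuses restricted_9085 (9.64) and restricted_2820 (10.34) and the femoral array of fetus restricted_2820 (9.45). The abdominal spread (SD 0.94) was accordingly wider than the omental (0.22), and no depot difference passed. The plot of the remaining members shows these arrays.

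**Figure D3:**
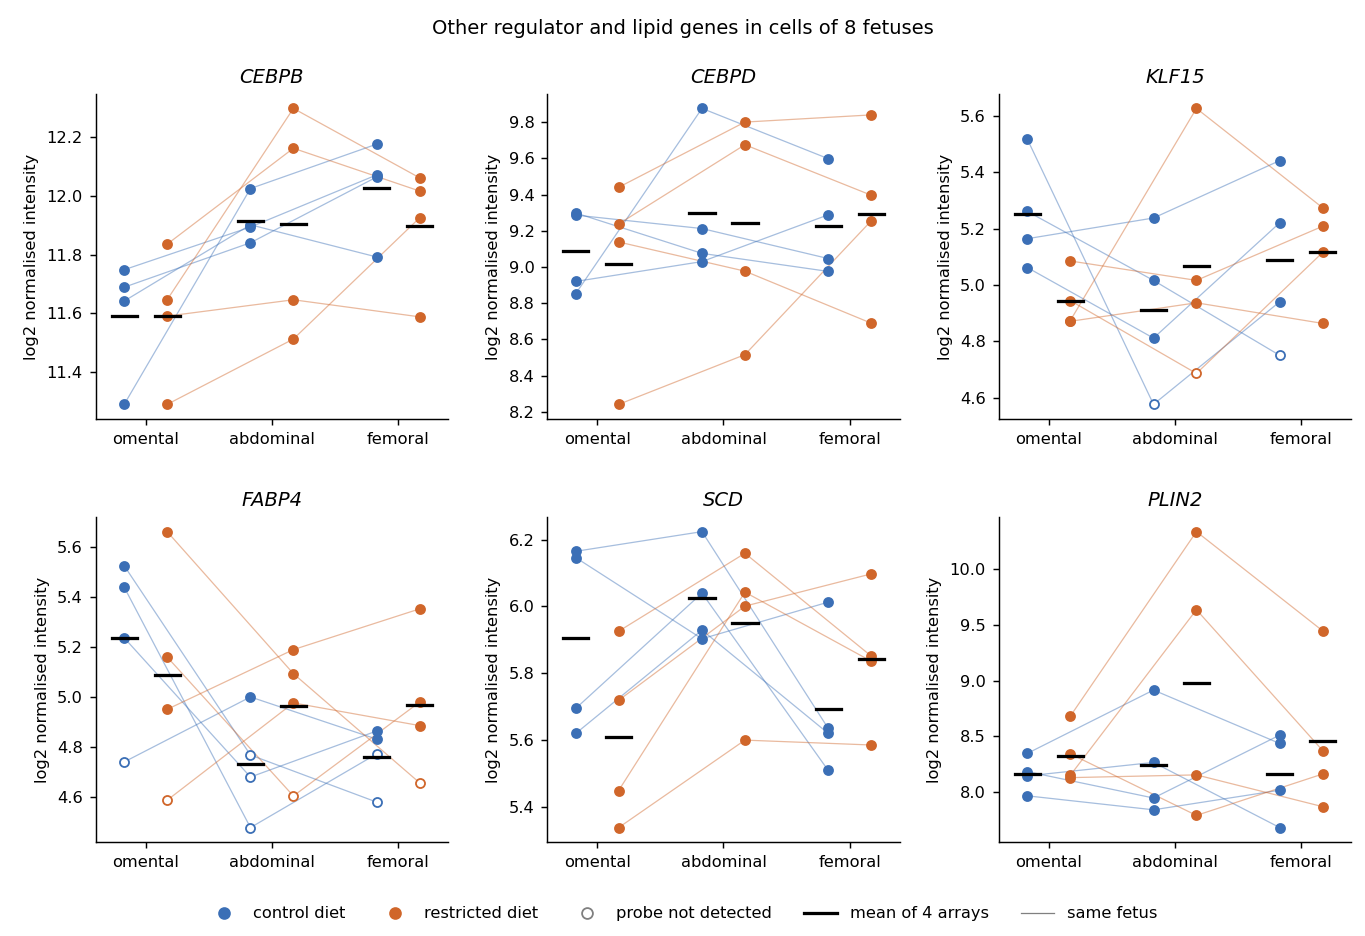
Log2 normalised intensity of CEBPB, CEBPD, KLF15, FABP4, SCD and PLIN2 on 24 arrays, drawn as for PPARG (open points not detected, thin lines 1 fetus, black bars means of 4). Each panel has its own scale. CEBPB is lowest in omental cells, and PLIN2 stands out at 10.34, 9.64 and 9.45 in cells of fetuses restricted_2820 and restricted_9085.

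Of the 10 tested member probes, 3 were higher and 1 lower in omental than abdominal cells, beside 4.62% of all tested probes called. With the fetus as a replicate block, the counts were 3 and 2, beside 9.62%. Against femoral cells, 3 were higher and 2 lower, beside 10.9% of all probes, and the same counts with the block stood beside 15.6%. No member probe passed between abdominal and femoral cells in limma's test, with or without the block, where 0.0768% and 0.177% of all probes did. At an unadjusted p under 0.05, 3 of 10 members and 708 of 16933 probes differed between these 2 depots without the block. CD36 entered the test mainly through omental arrays and CEBPA through subcutaneous arrays, so a depot difference of these 2 was partly fixed by their being tested. Among the 6 member probes detected on every array, 2 passed between omental and abdominal cells and 3 between omental and femoral cells. The 2 were both of PPARG, and the 3 were these and CEBPB. The share of calls among all probes detected on every array is not given here. In each count of 3 higher member probes above, 2 were likewise of PPARG.

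Markers of other cells were read beside these depot differences. Their summed intensities take 1 probe for each marker on the array, detected or not, so background is part of every sum. Of 10 mesothelial markers, 3 to 5 were detected on omental arrays, with summed linear intensities of 517 to 1281, against 268 to 564 in abdominal cells, which overlap these, and 233 to 333 in femoral cells. With the control diet the sums were 757 to 1005 in omental and 268 to 332 in abdominal cells, without overlap. With the restricted diet they were 517 to 1281 and 355 to 564, which overlap. The abdominal sums of the 2 diets did not overlap, and their part in the diet differences was not tested. Of the 5 tested, 1 was called higher in omental than abdominal cells (4 with the block) and 4 than femoral cells, and none lower. WT1, a factor of the mesothelium that visceral fat progenitors also express, exceeded abdominal cells by 1.69 ± 0.21 (limma adjusted p = 0.000284). MSLN, KRT8, KRT18, BNC1 and ITLN1 were detected on no array, and the part of mesothelial cells in the PPARG and CD36 differences was not tested.

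Endothelial cells and macrophages also express CD36. Omental arrays, where CD36 was high, detected 2 to 6 of 11 endothelial markers with summed intensities of 276 to 387. Abdominal sums were 350 to 547, which overlap these, and femoral sums were 402 to 546. Omental and abdominal sums did not overlap with the control diet (276 to 344 and 372 to 547) but did with the restricted diet (286 to 387 and 350 to 428). CDH5 and PLVAP were detected on no array, while ERG was detected on 23, TEK on 22, KDR on 19, PECAM1 on 17 and VWF on 15. Of 8 tested endothelial markers, 3 lay above 0 in omental against abdominal and 5 against femoral cells (medians -0.0011 and 0.03). The receptor gene TEK was the 1 called without the block, lower in omental cells (-2.04 ± 0.21 and -2.38 ± 0.16, limma adjusted p = 5.88e-05 and 3.89e-08), and with the block 1 other was called higher against femoral cells. Of 13 macrophage markers 3 to 4 were detected in each depot, with sums of 451 to 624 in omental, 473 to 1339 in abdominal and 448 to 818 in femoral cells. PTPRC, CD163, CSF1R, ITGAM, AIF1, TYROBP, FCER1G, MARCO and MRC1 were detected on no array. The part of endothelial cells and macrophages in the CD36 difference was not tested.

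The genes around PPARG and CEBPA were read from lists of their pathway, with 1 probe per gene. Among all 10228 genes, 5.68% were called between omental and abdominal cells and 13.3% between omental and femoral cells, or 11.8% and 19.2% with the fetus as a block. Between abdominal and femoral cells the shares were 0.088% and 0.215%, and no gene of the pathway lists was called there in either fit.

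Fatty acid uptake and binding genes other than the members gave 14 tested genes of 20. In omental cells 1 rose and 1 fell against abdominal cells, and 2 rose and 4 fell against femoral cells. With the block 2 rose and 2 fell against abdominal cells, and 2 rose and 5 fell against femoral cells. The lipoprotein APOE was higher by 1.75 ± 0.36 and 1.44 ± 0.42 (limma adjusted p = 0.0115 and 0.035). The lipoprotein receptor VLDLR was lower, at -0.72 ± 0.15 and -0.80 ± 0.11 (adjusted p = 0.0127 and 0.000145), and the acyl-CoA synthetase ACSL5 was lower against femoral cells (-0.99 ± 0.29, 0.0381). The list's medians were -0.08 and -0.0036, beside 0.0033 over all genes in the first comparison.

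Fatty acid synthesis genes gave 14 tested genes of 17, with 1 and 2 higher in omental cells and none lower without the block. With it the higher counts were the same, and 1 gene was lower against femoral cells. ACLY, which makes cytosolic acetyl-CoA, was higher by 0.47 ± 0.13 and 0.52 ± 0.10 (limma adjusted p = 0.0456 and 0.00204), and the elongase ELOVL5 by 0.50 ± 0.12 against femoral cells (0.00881). Triglyceride and lipid droplet genes gave 14 tested of 21. None was called against abdominal cells without the block, and 1 was lower with it. Against femoral cells the seipin gene BSCL2, needed for droplet formation, was lower by 0.38 (difference -0.38 ± 0.07, 0.00186). With the block 1 droplet gene was higher and 1 lower against femoral cells.

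Of 18 partners and coregulators of PPARG, 11 were tested and none was called between any depots by limma, with or without the block. The smallest p-values were those of the coactivator NCOA1 against abdominal cells (0.23 ± 0.10, adjusted p = 0.267) and the corepressor NRIP1 against femoral cells (0.35 ± 0.16, 0.212). Mature fat cell markers gave 4 tested genes of 12 and no call without the block. With it RBP4 was lower in omental cells (-1.25 ± 0.33 and -1.01 ± 0.26, adjusted p = 0.0385 and 0.0212).

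Regulators upstream of PPARG moved in both directions. Of 14 tested pro-adipogenic regulators, 1 was higher and 2 lower in omental than abdominal cells, and 2 were higher and 6 lower than in femoral cells. With the block 2 were higher and 3 lower than in abdominal cells, and the counts against femoral cells were the same. KLF4 was lower by -1.55 ± 0.18 and -1.62 ± 0.18 (limma adjusted p = 0.000146 and 2.09e-05), the glucocorticoid receptor gene NR3C1 by -0.71 ± 0.19 and -0.82 ± 0.11 (0.0392 and 0.000118). IGF1, a growth factor that promotes differentiation, was higher by 0.74 ± 0.19 and 0.74 ± 0.17 (0.0308 and 0.00705).

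Of 11 tested anti-adipogenic regulators, 2 and 3 were lower in omental cells and none was higher. With the block 3 and 4 were lower and none was higher. TWIST2 differed by -1.30 ± 0.26 and -1.22 ± 0.28 (limma adjusted p = 0.00881 and 0.0083) and TWIST1 by -0.99 ± 0.25 and -0.65 ± 0.18 (0.0358 and 0.0252). The Wnt effector TCF7L2 was lower against femoral cells (-0.81 ± 0.19, 0.00966).

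Glucocorticoids and inflammatory signals both act on CEBPB, CEBPD and KLF15. Of 8 tested glucocorticoid targets, 1 was lower in omental than abdominal and 3 than femoral cells, among them the metallothionein MT2A (-2.48 ± 0.61 and -2.32 ± 0.37, limma adjusted p = 0.0281 and 0.000463). None was called higher without the block, and with it 2 were higher and 3 lower against femoral cells. In each comparison 4 of the 8 targets lay above 0. Of 8 tested inflammatory genes, none was called against abdominal cells without the block and 2 were lower against femoral cells. These were SOD2 (-1.40 ± 0.31, 0.00693) and CXCL8 (-2.66 ± 0.77, 0.0341), the chemokine IL-8. With the block 2 inflammatory genes were lower against abdominal and 3 against femoral cells, and none was higher. The part of these targets and inflammatory genes in the lower omental CEBPB was not tested.

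**Figure D4:**
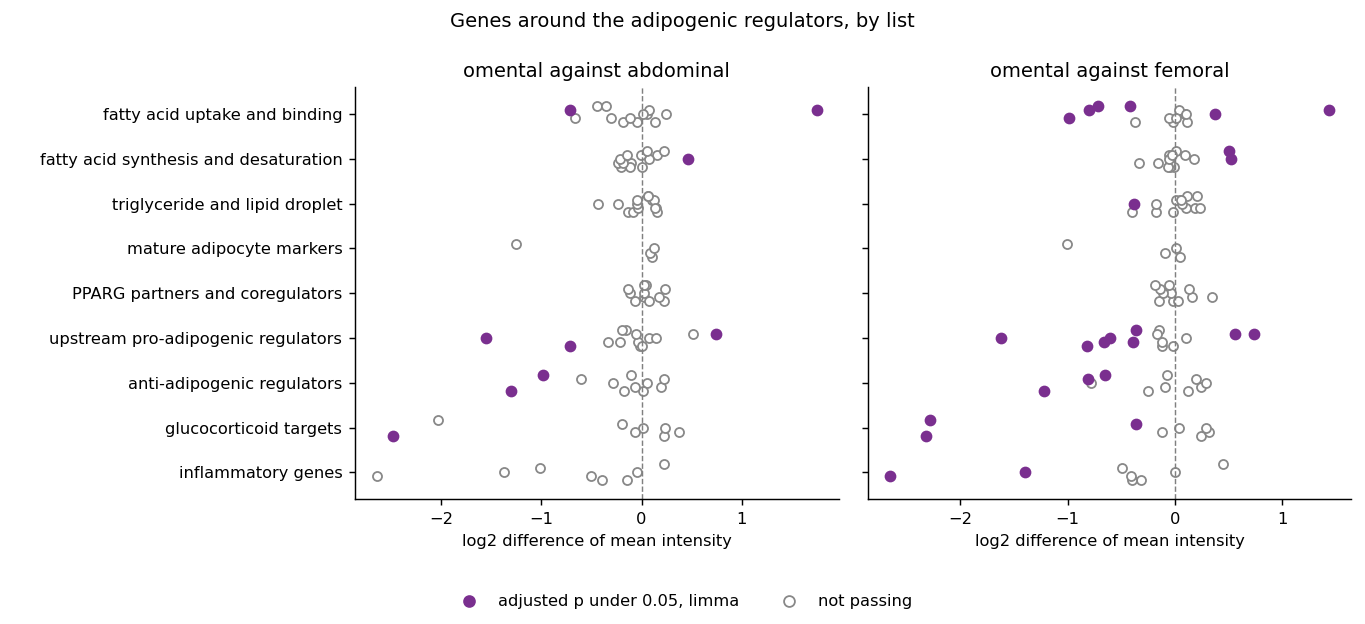
Log2 differences between omental and subcutaneous cells for the tested genes of 9 lists, 1 point a gene; filled points had a limma adjusted p under 0.05. Calls lie on both sides of 0 for uptake genes and pro-adipogenic regulators, below 0 for anti-adipogenic regulators, and no PPARG partner is called.

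The genes whose levels followed PPARG most closely over the 24 arrays were LRATD2 (Pearson r = 0.863), ZNF503 (0.844), HIVEP3 (0.833), PLA2G7 (0.819) and HAND2-AS1 (0.819). For CEBPA they were PROS1 (0.89), SERP2 (0.883), BCL2, DPAGT1 and ZNF524 (0.88 each). Arrays of 1 depot share their depot's level, and 3 arrays share a fetus. With the means of the 6 groups removed, r was 0.386 to 0.612 for the PPARG genes and 0.661 to 0.837 for the CEBPA genes. These values describe the likeness of 10227 genes compared and carry no test.

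Maternal restriction changed none of the 10 tested member probes in any depot by limma, and 0% of all probes were called in omental, abdominal and femoral cells alike. At an unadjusted p under 0.05, 1 member in omental, 0 in abdominal and 3 in femoral cells differed, beside 804, 824 and 1050 of 16933 probes. On the means of each fetus over its 3 depots, 0 members and 1 of 16933 probes (0.00591%) were called, with 1 member at an unadjusted p under 0.05. With 4 fetuses a group the confidence intervals were wide, as the plot of diet differences shows.

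The femoral values came closest. Femoral CEBPA read 6.68, 6.64, 7.69 and 6.52 in control against 5.94, 6.14, 4.47 and 6.00 in restricted fetuses, without overlap. The difference was -1.25 ± 0.39 (95% confidence interval -2.12 to -0.37, unadjusted p = 0.0105, limma adjusted p = 0.751). Without fetus restricted_9075, whose femoral array was at background, it was -0.86 ± 0.26.

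Femoral PPARG averaged 8.51 ± 0.32 (SD, n = 4) in control and 7.62 ± 0.76 in restricted fetuses, also without overlap. The difference was -0.89 ± 0.34 (interval -1.66 to -0.13, unadjusted p = 0.0259, limma adjusted p = 0.78), and -0.52 ± 0.18 without fetus restricted_9075. The second probe differed by -0.53 ± 0.22 and its groups overlapped. The summed intensities of the progenitor markers in femoral cells were 102310 to 104335 in control and 85508 to 99922 in restricted fetuses, also without overlap. Of 12 tested progenitor markers 1 lay above 0 in femoral cells (median -0.18, none called by limma), and their part in the PPARG and CEBPA differences was not tested. Groups without overlap were found for 2 of 10 member probes in femoral cells and for none in omental or abdominal cells, beside 3.89%, 2.82% and 3.14% of all tested probes.

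In abdominal cells PPARG differed by 0.47 ± 0.39 and CEBPA by -0.63 ± 0.57, and in omental cells by -0.48 ± 0.27 and -0.12 ± 0.13. None passed. Omental CEBPA was detected on only 1 of 8 arrays, so its small difference and error do not show that diet left it unchanged. KLF15 in omental cells read 5.52, 5.26, 5.06 and 5.16 in control and 4.87, 4.94, 4.87 and 5.09 in restricted fetuses, a difference of -0.31 ± 0.11 (unadjusted p = 0.0227, limma adjusted p = 0.981) with overlap between fetuses control_8011 and restricted_9073. PLIN2 in abdominal cells was 8.24 ± 0.48 in control and 8.98 ± 1.21 in restricted fetuses (SD, n = 4). Its difference of 0.74 ± 0.54 became 0.29 ± 0.45 without fetus restricted_2820. CD36 in omental cells differed by -0.44 ± 0.76 with an interval from -2.14 to 1.26, so neither a large fall nor a rise was resolved.

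**Figure D5:**
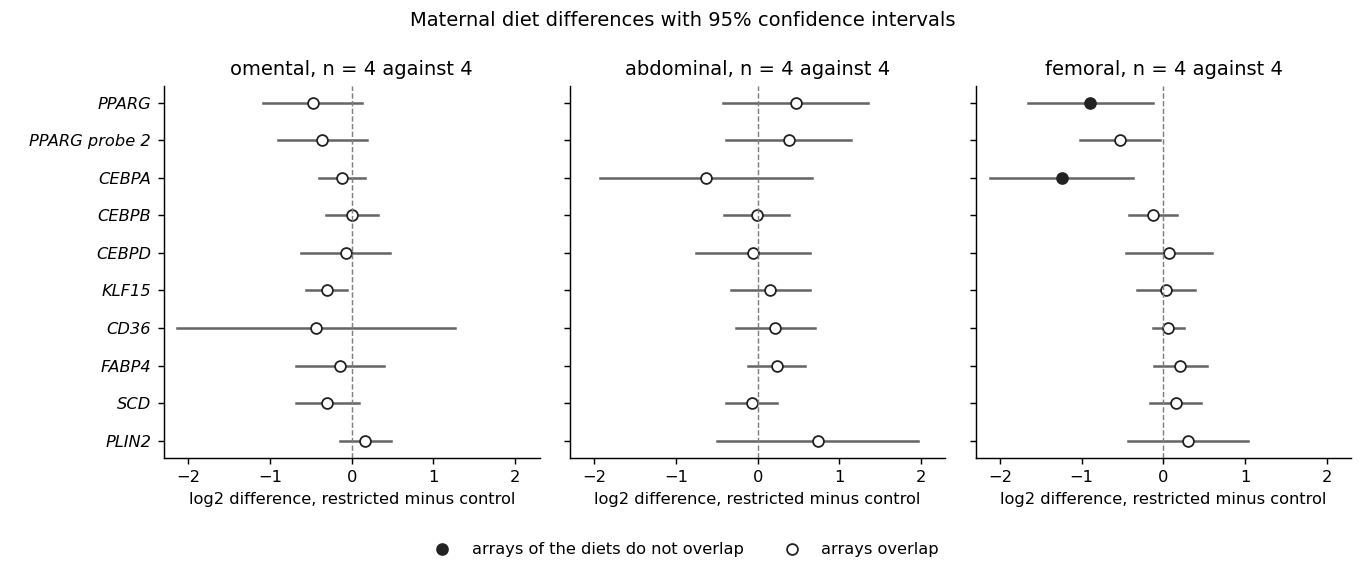
Log2 differences, restricted minus control, for the 10 tested probes in each depot (4 against 4 arrays), with 95% confidence intervals from limma that are not adjusted for the number of probes. Filled points mark the 2 femoral comparisons, PPARG and CEBPA, in which the arrays of the diets do not overlap.

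Whether the diet difference itself differed between depots was tested as an interaction, and 0% of all probes were called for each of the 3 depot pairs (330, 392 and 322 of 16933 at an unadjusted p under 0.05). For PPARG, the omental minus abdominal difference averaged 1.66 ± 0.64 (SD) in control and 0.72 ± 0.33 in restricted fetuses, 4 each. The interaction was -0.94 ± 0.51 (unadjusted p = 0.0856), and -0.94 ± 0.30 (unadjusted p = 0.00984, limma adjusted p = 0.999) with the fetus as a replicate block. The abdominal minus femoral difference of PPARG averaged 0.07 ± 0.72 in control and 1.44 ± 0.70 in restricted fetuses (interaction 1.36 ± 0.56, unadjusted p = 0.0283, limma adjusted p = 1.00). For CEBPA the omental minus femoral difference averaged -2.20 ± 0.63 and -1.07 ± 0.71 (interaction 1.12 ± 0.44, unadjusted p = 0.0225, adjusted p = 1.00). Omental CEBPA was detected on only 1 of 8 arrays, so this interaction largely restates the femoral diet difference of -1.25. In fetus restricted_9075 both arrays were at background. None of these interactions passed.

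No gene of the pathway lists was called for diet in any depot by limma. As a description without a test, the genes above 0 in restricted fetuses were counted in omental, abdominal and femoral cells in turn. Uptake genes gave 5, 6 and 8 of 14, synthesis genes 3, 2 and 6 of 14, and droplet genes 9, 4 and 8 of 14. PPARG partners gave 1, 3 and 4 of 11, with medians of -0.11, -0.09 and -0.06, beside medians of all genes of -0.0066, -0.012 and -0.0043. Pro-adipogenic regulators gave 5, 6 and 3 of 14, anti-adipogenic regulators 7, 6 and 6 of 11, and mature fat cell markers 2 of 4 in each depot. Glucocorticoid targets gave 5, 8 and 3 of 8 (medians 0.04, 0.20 and -0.03) and inflammatory genes 8, 8 and 7 of 8 (medians 0.39, 0.31 and 0.11).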

How the data were processed

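RNA of 24 cultures was read on single-channel Illumina arrays with human probes, per the labels' protocols. For each probe on each array, the authors deposited an average intensity with its detection p-value, per the file headers. From the values, these intensities were background-subtracted (32.0% to 37.7% below 0) and not normalised between arrays. The authors' series matrix holds intensity values that were quantile-normalised, as read from the values (own rank correlation 1, medians 2.90 to 2.91), and served as an alternative. Columns were matched by depot letter and fetus number, which that rank order bore out. Gene names came from GEO's platform annotation, which can be old: 28098 probes had 1 symbol, 13 several and 20692 none.

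Background correction, quantile normalisation and log2 used neqc (offset 16) in limma 3.58.1 (R 4.3.3, statmod 1.5.0). Probes with a detection p under 0.05 on at least 4 of 24 arrays were tested. The offset makes a fold change of a dim probe too small. Depots were compared over the 16 arrays of a pair with diet in the model, diets over the 8 arrays of a depot and over fetus means, and interactions over 16 arrays. A gene was described by its brightest tested probe. A gene of a list was named for a depot pair if it was among the 3 called with the largest difference, or, with none called, had the smallest p. An "at least" fold sets the bright group's mean against the dim arrays' lowest detected signals. Fetus numbers pair the samples because the 3 depots come from the same animal, and deviations of same-numbered arrays correlated at 0.28 to 0.67 over 24 pairs. Fits were tested on simulated data. Alternatives covered the background model, normalisation, offset, filter, sex, left-out fetuses and the replicate block. Exact permutation tests used scipy 1.17.1 and plots matplotlib 3.10.9 under Python 3.11.15. No slide or scan date is given in the sources used here, so neither was tested. Members and lists were chosen with earlier results of these data known. No probe or gene sequence is printed because none was used here.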

Additional observations from a re-analysis of the deposited data

Results flagged for a closer look

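In 60 groups of 4 arrays that were screened (10 probes by 6 groups), 5 had 1 array far from the other 3 by Dixon's test at the 95% level, which chance gives in about 1 group in 20. Femoral cells of fetus control_8011 read 6.39 by the second PPARG probe, against 5.54 to 5.64 in the other control fetuses, and 7.69 for CEBPA, against 6.52 to 6.68. Femoral CEBPA of fetus restricted_9075 was 4.47 and not detected, against 5.94 to 6.14 in the others. Abdominal CD36 of fetus restricted_9073 was 5.39, the only detected abdominal array, against 4.39 to 4.47 in the others. Mesothelial markers of that array summed to 481, with 5 of 10 detected. Abdominal sums were 268 to 332 in control fetuses (2 to 4 detected) and 355 to 564 in restricted fetuses (3 to 5 detected), that array included. The part of mesothelial cells was not tested. Femoral CD36 of fetus restricted_2820 was 4.70 and below detection, against 4.45 to 4.47.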

How the results depend on the processing

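PPARG, CEBPA and CD36 kept the direction of their called depot differences under every alternative run. Of 1771 refits of 100 single differences, 12 lost a call, 4 gained one and none turned a called direction, while 105 refits changed the sign of an uncalled difference. The 12 losses concern PPARG and CD36 against abdominal cells and CEBPB against femoral cells, as given above, and the causes were not tested. With the fetus as a replicate block 1629 probes were called between omental and abdominal cells in place of 782, and 30 in place of 13 between abdominal and femoral cells, and CEBPB against abdominal cells was the only member call that changed. Without the abdominal array of fetus restricted_9073, an alternative chosen after seeing the data in its blocked form, the block gave 1636 and 20. With all 24 arrays in 1 fit, 1726 and 44 probes were called, with 4 for femoral diet and 22 for diet over depots.

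With no filter 394 probes and 2 members were called between omental and abdominal cells. With only probes detected on every array, where CEBPA and CD36 fall out, 2 member probes were called there, both of PPARG. Between omental and femoral cells 3 member probes were called, and between the subcutaneous depots 3 probes. The share of all such probes called between omental and subcutaneous cells is not given here. In the female fetuses alone 228, 1059 and 8 probes were called for the 3 depot pairs in the order above, and 3 for diet in each depot. The 1 probe called for diet over depots became 0 with offset 50, with probes detected on every array, with sex in the model, in females alone and without the abdominal array of fetus restricted_9073.

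Leaving out 1 fetus gave 346 to 926 probes and 2 to 4 members between omental and abdominal cells, 1310 to 2191 probes and 4 to 5 members between omental and femoral cells, and 8 to 13 probes and 0 members between the subcutaneous depots. The lowest counts came without fetus control_8009 (346 and 1310), and members fell to 2 without fetus control_9087. Diet gave 0 to 2 omental, 0 to 1 abdominal, 0 to 5 femoral and 0 to 3 probes over depots, and no member. For PPARG within fetuses, means over 7 fetuses were 1.07 to 1.29, 1.87 to 2.06 and 0.60 to 0.99, and for CEBPA -1.71 to -1.38, -1.86 to -1.42 and -0.30 to 0.18. CEBPA and CD36 were close to background in the depot where they were low, which limits the size of their differences.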
